A study of Mus musculus and Sus scrofa with 18 samples.

Results

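The 37 genes carried by mouse mitochondrial DNA, 13 for proteins, 2 for rRNAs and 22 for tRNAs, were examined in the striatum of the mice. They were taken as every gene of the mouse count table whose symbol starts with mt-, which gave 37 of 55357 gene identifiers. RNA had been sequenced from the striatum of 9 mice, 3 in each of 3 groups, and each library came from 1 mouse. HD 140Q-KI mice are heterozygous for a knock-in in which exon 1 of human HTT, carrying an expanded CAG repeat, stands in place of exon 1 of their own Htt gene, and had been bred by crossing heterozygous males with WT females. Untreated mice were HD 140Q-KI mice injected in both striata with AAV9 carrying CasRx, an RNA-cutting Cas13d enzyme driven by the ubiquitous CAG promoter, and AAV9 carrying a control gRNA. Treated mice were HD 140Q-KI mice that received the same CasRx vector with AAV9 carrying 4 HTT gRNAs in place of the control. WT mice received the control gRNA vector without CasRx, so in any comparison with WT the effects of the knock-in and of CasRx cannot be told apart. Mice were injected at 6 months of age, and tissue was taken 6 weeks later.

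Mitochondrial DNA is a small circle that is transcribed along almost its whole length from both strands. The long precursors are cut at the tRNAs that lie between the other genes, which frees the mRNAs and rRNAs, and most mRNAs then receive a short poly(A) tail inside the organelle. The encoded proteins are all subunits of respiratory complexes I, III, IV and V, where they work beside subunits that are encoded in the nucleus. The proteins that copy, transcribe and translate it also come from nuclear genes. Striatal projection neurons, the cells most affected in HD, depend strongly on this respiratory chain.

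The genes were read with reservations that come from their sequence. In the GENCODE M21 transcripts (build GRCm38), 17 nuclear genes held a stretch of at least 100 bases that was at least 90% identical to a mitochondrial gene. Of these, 7 lie side by side on chromosome 1 (chr1:24611535-24616197, − strand) and are 99.71% to 100% identical to their mitochondrial counterparts. The other 10 are between 90.67% and 97.6% identical. The following 60 bases of mt-Co1, the core subunit of complex IV (chrM:6448-6507, + strand, bases 1121 to 1180 of the gene, coding), are shown with the same window of its chromosome 1 copy Gm29216 and of its chromosome 2 copy Gm13340, because these copies differ in how many bases tell them from mt-Co1 and, below, in their counts. Capitals mark bases that differ from mt-Co1.

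mt-Co1: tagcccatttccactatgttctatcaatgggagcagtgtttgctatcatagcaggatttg
Gm29216: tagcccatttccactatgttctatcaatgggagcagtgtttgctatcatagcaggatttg
Gm13340: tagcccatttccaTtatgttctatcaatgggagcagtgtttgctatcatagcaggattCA

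Gm29216 is identical to mt-Co1 in this window and differs from it at a single base elsewhere in the aligned part, A1066T. Gm13340 carries C1134T, T1179C and G1180A here, with the mt-Co1 base first and positions counted from the first base of mt-Co1. A read from this window therefore matches mt-Co1 and Gm29216 equally well. Some mitochondrial genes also share sequence with each other. The last 43 bases of mt-Atp8 are the first 43 of mt-Atp6 (chrM:7927-7969, + strand, coding), with the mt-Atp6 start codon and the mt-Atp8 stop codon in capitals in the following line.

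mt-Atp8 and mt-Atp6 overlap: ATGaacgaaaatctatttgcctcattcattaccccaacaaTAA

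The genes mt-Nd4l and mt-Nd4 overlap by 7 bases, and mt-Nd5 and mt-Nd6 by 14 bases on opposite strands. The strand setting of the counting is not given in the sources used here, so counts of overlapping and opposite genes cannot be fully told apart.

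The counts of the chromosome 1 copies followed those of the mitochondrial genes. In WT replicate 1, mt-Co3, a complex IV subunit, had 100610 counts and its copy Gm28437 had 100292. Over the 9 mice Gm28437 held between 97.46% and 99.7% of the counts of mt-Co3, Gm10222 between 99.1% and 100.2% of those of mt-Nd4l, and Gm28661 between 100.6% and 101.4% of those of mt-Co2. Gm29216 spans only the end of mt-Co1 and held 8.996% to 12.99% of its counts. The chromosome 2 copies, which carry more differences, held few counts. Gm13340 had 364 to 540 counts against 440209 to 781994 for mt-Co1. The 7 other copies had at most 7 counts in any library. The table does not tell whether one read was counted at both places, so levels of the 7 mitochondrial genes with a chromosome 1 copy are uncertain.

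**Figure D1:**
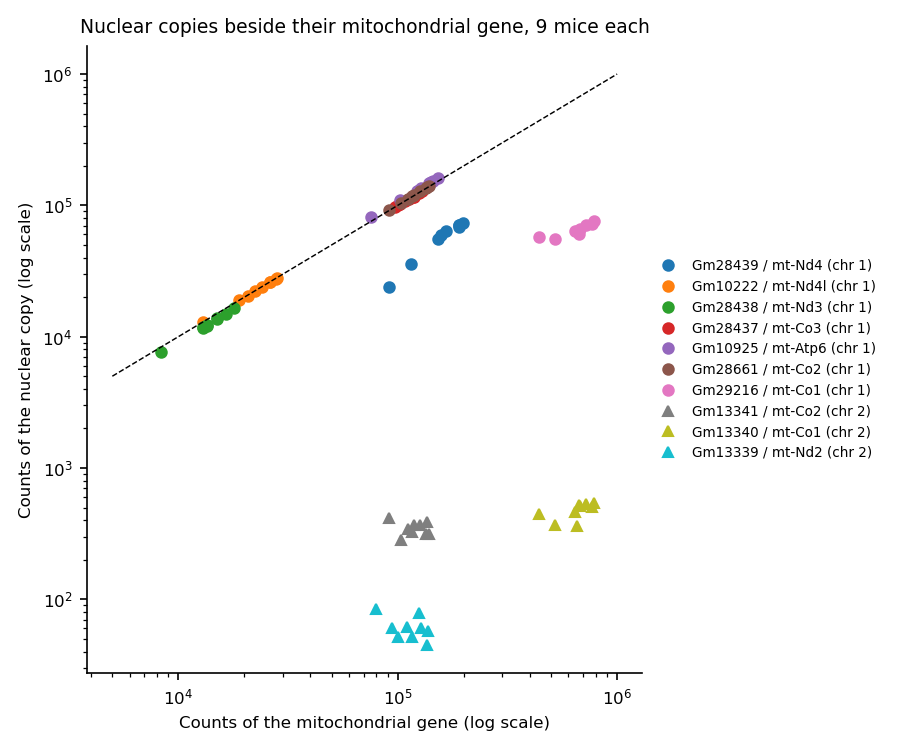
Counts of 10 nuclear copies (vertical axis, log scale) against those of their mitochondrial gene (horizontal axis, log scale), with 1 point for each of the 9 mice and the dashed line at equality. The chromosome 1 copies of mt-Nd3, mt-Nd4l, mt-Co2, mt-Co3 and mt-Atp6 lie near the line, those of mt-Nd4 and mt-Co1 below it, and the chromosome 2 copies (triangles) far below it.

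Total counts ranged from 27184356 to 32102121 per library, and all 37 mitochondrial genes passed the filter on low counts that left 19463 genes for testing. The smallest count of any mitochondrial gene in a library was 9 (mt-Tv, a tRNA, in WT replicate 1) and the largest 781994 (mt-Co1 in treated replicate 1). The gene mt-Co1 had the most counts of all genes in each of the 9 libraries, and between 4 and 7 of the 10 genes with the most counts were mitochondrial. Summed counts of 4 Y-linked genes (Kdm5d, Ddx3y, Uty and Eif2s3y) were 3435 to 5005 in 4 libraries (the 3 WT mice and untreated replicate 1) and 0 in the other 5, so the sex of the mice moved with the groups. All WT mice and no treated mouse had Y-linked counts, so sex and group cannot be told apart in treated against WT mice. A fit with the Y-linked share as a covariate cannot separate them, as it rests on untreated replicate 1 and the spread within WT. In that fit the median log2 fold changes of the 37 genes were 0.42 in untreated mice and 0.59 in treated ones against WT. Between the HD groups the median was 0.17. The part of sex in the results was not otherwise tested. The defining markers of striatal projection neurons were present in every library, at a summed 6789 to 8786 CPM (counts scaled by TMM to a common library size) in WT, 2066 to 2448 in untreated mice and 3261 to 3295 in treated ones. In bulk tissue, fewer cells of a type and less RNA per cell cannot be told apart.

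Mitochondrial transcripts made up a larger part of the library in each treated mouse than in each untreated mouse, while the WT mice varied widely and their range spanned that of the untreated mice. The 37 genes held 6.14%, 4.99% and 7.38% of the counts in WT replicates 1 to 3. They held 7.17%, 7.26% and 7.20% in untreated mice. In treated mice they held 7.80%, 8.03% and 7.63%. Each treated mouse thus lay above each mouse of the other groups, whereas the untreated mice lay above 2 WT mice and below WT replicate 3. The mean share was 6.17% ± 1.20 (SD, n = 3) in WT, 7.21% ± 0.0444 (SD, n = 3) in untreated mice and 7.82% ± 0.202 (SD, n = 3) in treated ones. The difference was 1.64 percentage points between treated and WT mice and 0.608 between treated and untreated mice (two-sided exact permutation test, p = 0.1 for each, the smallest p that 3 mice against 3 allow). Between untreated and WT mice it was 1.04 percentage points (p = 0.4 in the same exact permutation test). Without WT replicate 2, the difference from WT was 0.446 percentage points in untreated mice and 1.05 in treated ones, and without WT replicate 3 it was 1.64 and 2.25.

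The share of the protein-coding genes alone followed the same order, with means of 5.63%, 6.51% and 7.13% in the WT, the untreated and the treated group. The share of the 22 tRNAs was small, between 0.0195% and 0.0372% of a library. Mature tRNAs carry no poly(A) tail, and which RNA gave these counts in oligo-dT primed libraries cannot be told from the table. The 2 rRNAs, which form the RNA core of the mitochondrial ribosome, held 8.20%, 7.42% and 9.265% of the mitochondrial counts in WT, 9.74%, 8.64% and 9.59% in untreated mice and 7.997%, 7.87% and 9.08% in treated ones. These ranges overlapped in all 3 comparisons, and the exact permutation p was 0.2 for untreated against WT, 1.0 for treated against WT and 0.2 for treated against untreated.

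**Figure D2:**
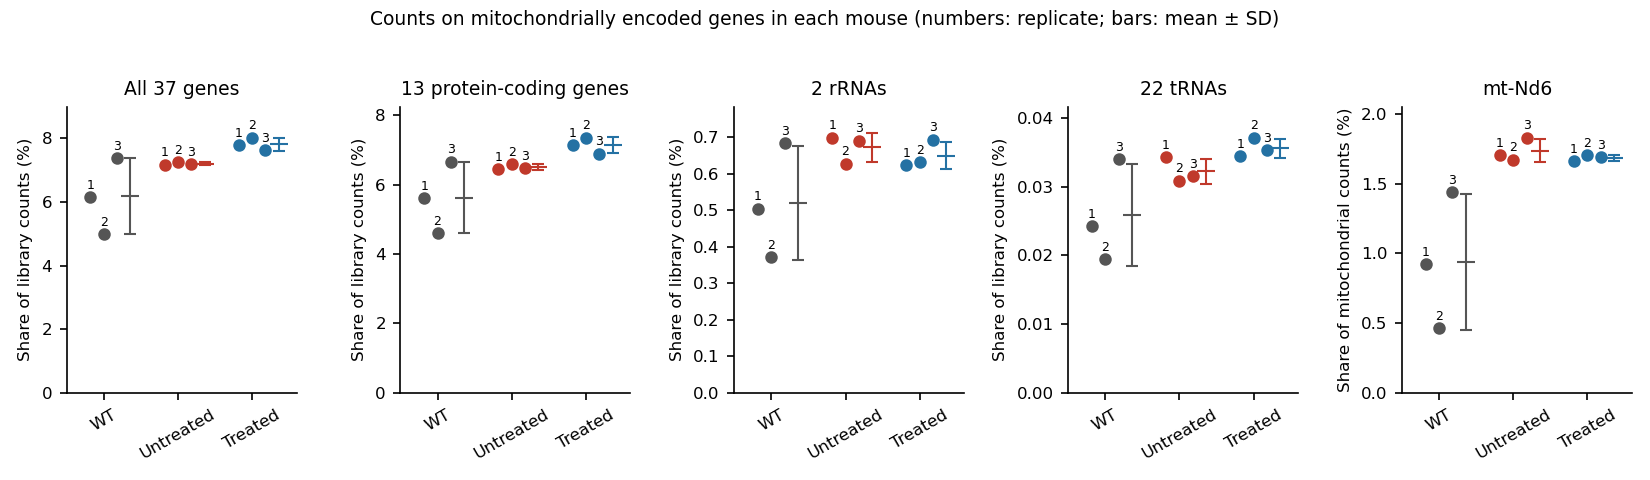
Share of counts (percent, axes from 0) of the 37 genes, of their classes, and of mt-Nd6 among mitochondrial counts, with 1 numbered point per mouse and the mean ± SD beside each group. Treated mice lie between 7.63% and 8.03% for all 37 genes, above the untreated mice at 7.17% to 7.26%, and WT replicate 2 is the lowest in each panel.

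The spread between mice was largest in the WT group. There the 13 protein-coding genes had a median SD of log2 CPM of 0.348, compared with 0.047 among untreated and 0.05 among treated mice. Over all 19463 tested genes it was 0.219, 0.165 and 0.125 in the same order. Over the 68 tested genes with a mean of at least 1000 CPM, which include mitochondrial ones, it was 0.177, 0.089 and 0.054. The treated value of the protein-coding genes was thus near that of other abundant genes. WT replicate 2 had the lowest level of all 9 mice for each of the 13 protein-coding genes and both rRNAs. That library also had the highest summed level of the 8 choroid plexus markers, at 5364 CPM, against 304 in WT replicate 1, 2009 in WT replicate 3, 266 to 479 in untreated mice and 308 to 2056 in treated ones. The part of choroid plexus RNA in the low mitochondrial counts was not tested.

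**Figure D3:**
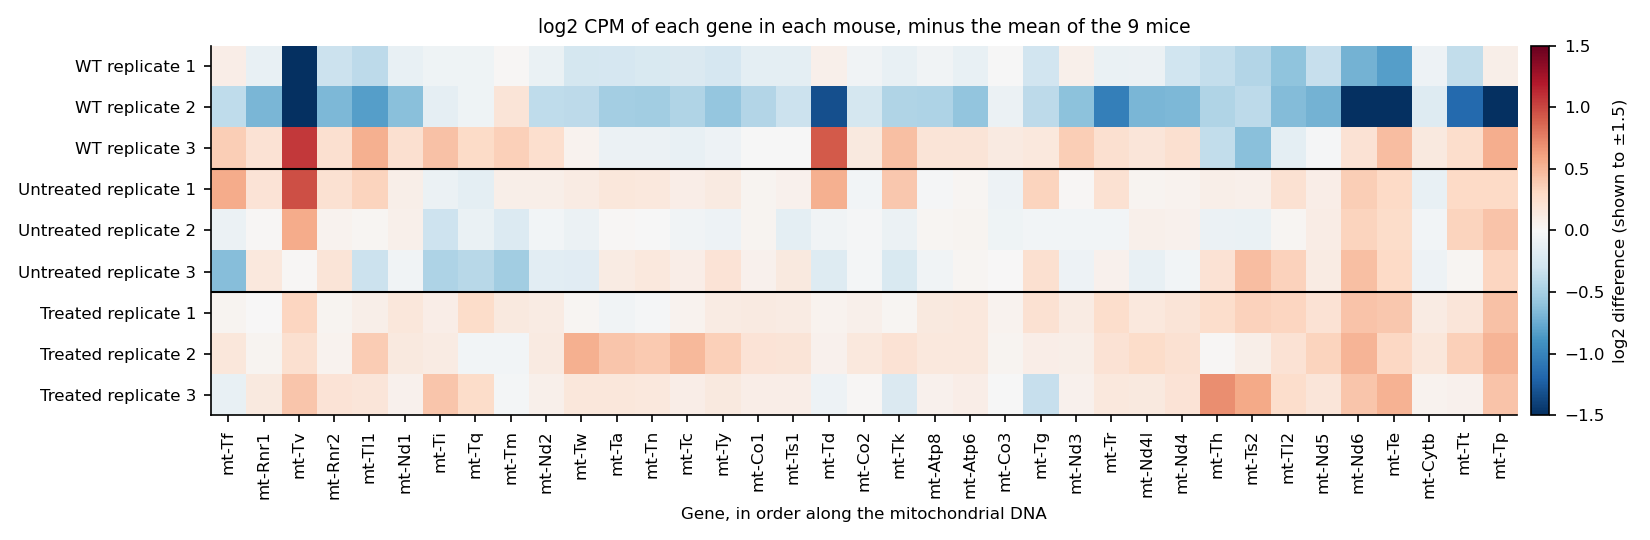
Log2 CPM of each of the 37 genes (columns, in order along the mitochondrial DNA) in each mouse (rows), minus the mean of the 9 mice, as a colour from blue (lower) to red (higher). WT replicate 2 is blue at most genes and WT replicate 3 red at many, and the gap between them is widest at mt-Tp, mt-Tv, mt-Td, mt-Nd6 and mt-Te.

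In untreated against WT mice, no mitochondrial gene met the DEG definition of an unadjusted P under 0.05 with at least a 2-fold change, which 8.16% of all tested genes met. In the edgeR quasi-likelihood fit none passed a Benjamini-Hochberg adjusted p under 0.05, which 10.7% of tested genes did, and the smallest adjusted p was 0.0602. DESeq2 gave 2 genes past an adjusted p of 0.05, mt-Tl2 and mt-Nd5, where it called 17.8% of tested genes. At an unadjusted P under 0.05 there were 8 of the 37 (background 28.6%), of which 7 were higher in untreated mice. The groups did not overlap for 9 genes that were higher (background 15.0%) and for 1 that was lower (background 15.1%). The median log2 fold change of the 37 genes was 0.22, against 0.02 over all tested genes, and 29 of the 37 values were above 0. The median was 0.03 without WT replicate 2 and 0.48 without WT replicate 3. Without WT replicate 3, 7 genes passed the adjusted p (background 7.40%) and 3 met the DEG definition (mt-Tv, mt-Nd6 and mt-Te, background 7.25%).

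In treated against WT mice, 1 mitochondrial gene, mt-Nd6, met the DEG definition, beside 5.22% of all tested genes. In the edgeR fit none passed the adjusted p, which 3.69% of tested genes did, and the smallest adjusted p was 0.0743. DESeq2 gave 8 such genes, mt-Ta, mt-Tn, mt-Tc, mt-Ty, mt-Co1, mt-Ts2, mt-Tl2 and mt-Nd5, where it called 1946 of the 19463 tested genes. At an unadjusted P under 0.05 there were 12 of the 37, all higher in treated mice (background 21.4%). The groups did not overlap for 11 genes that were higher (background 13.4%) and for none that was lower (background 15.1%). The median log2 fold change was 0.33 against 0.00 over all tested genes, 0.12 without WT replicate 2 and 0.57 without WT replicate 3. Without WT replicate 3, 7 genes passed the adjusted p (background 3.43%) and 3 met the DEG definition (background 5.03%).

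In treated against untreated mice the differences were small. No mitochondrial gene met the DEG definition, which 0.771% of tested genes met, and in the edgeR fit none passed the adjusted p, which 0% of tested genes did. DESeq2 also gave none of the 37 past the adjusted p, which 0.247% of tested genes passed, and 3 at an unadjusted P under 0.05. At an unadjusted P under 0.05 there were 2, the tRNA genes mt-Ti and mt-Tq, both higher in treated mice (background 5.50%). This fit shares its estimate of spread with the WT mice, which varied most. In a fit of only the 2 HD groups 7 genes had an unadjusted P under 0.05, all higher in treated mice. The smallest adjusted p there was 0.37 (edgeR, Benjamini-Hochberg), and 0 of the 37 were DEGs, beside 0.885% of all tested genes. The share of all tested genes at an unadjusted P under 0.05 was not computed for that fit or for DESeq2. The counts of 7 and 3 therefore cannot be set against a background. All 13 protein-coding genes had a value above 0, between 0.06 and 0.19 on the log2 scale, with a median of 0.12. The groups did not overlap for 12 of the 37 genes, all higher in treated mice, 9 of them protein-coding, where 6.92% of all tested genes were higher without overlap and 8.83% lower. The shared untreated and WT groups mean that the 3 comparisons are not independent of each other. Treated mice also had larger total counts than untreated mice, at 29943675 to 32102121 against 28628414 to 29311041, and a higher summed level of projection neuron markers, and the part of either in the difference was not tested.

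**Figure D4:**
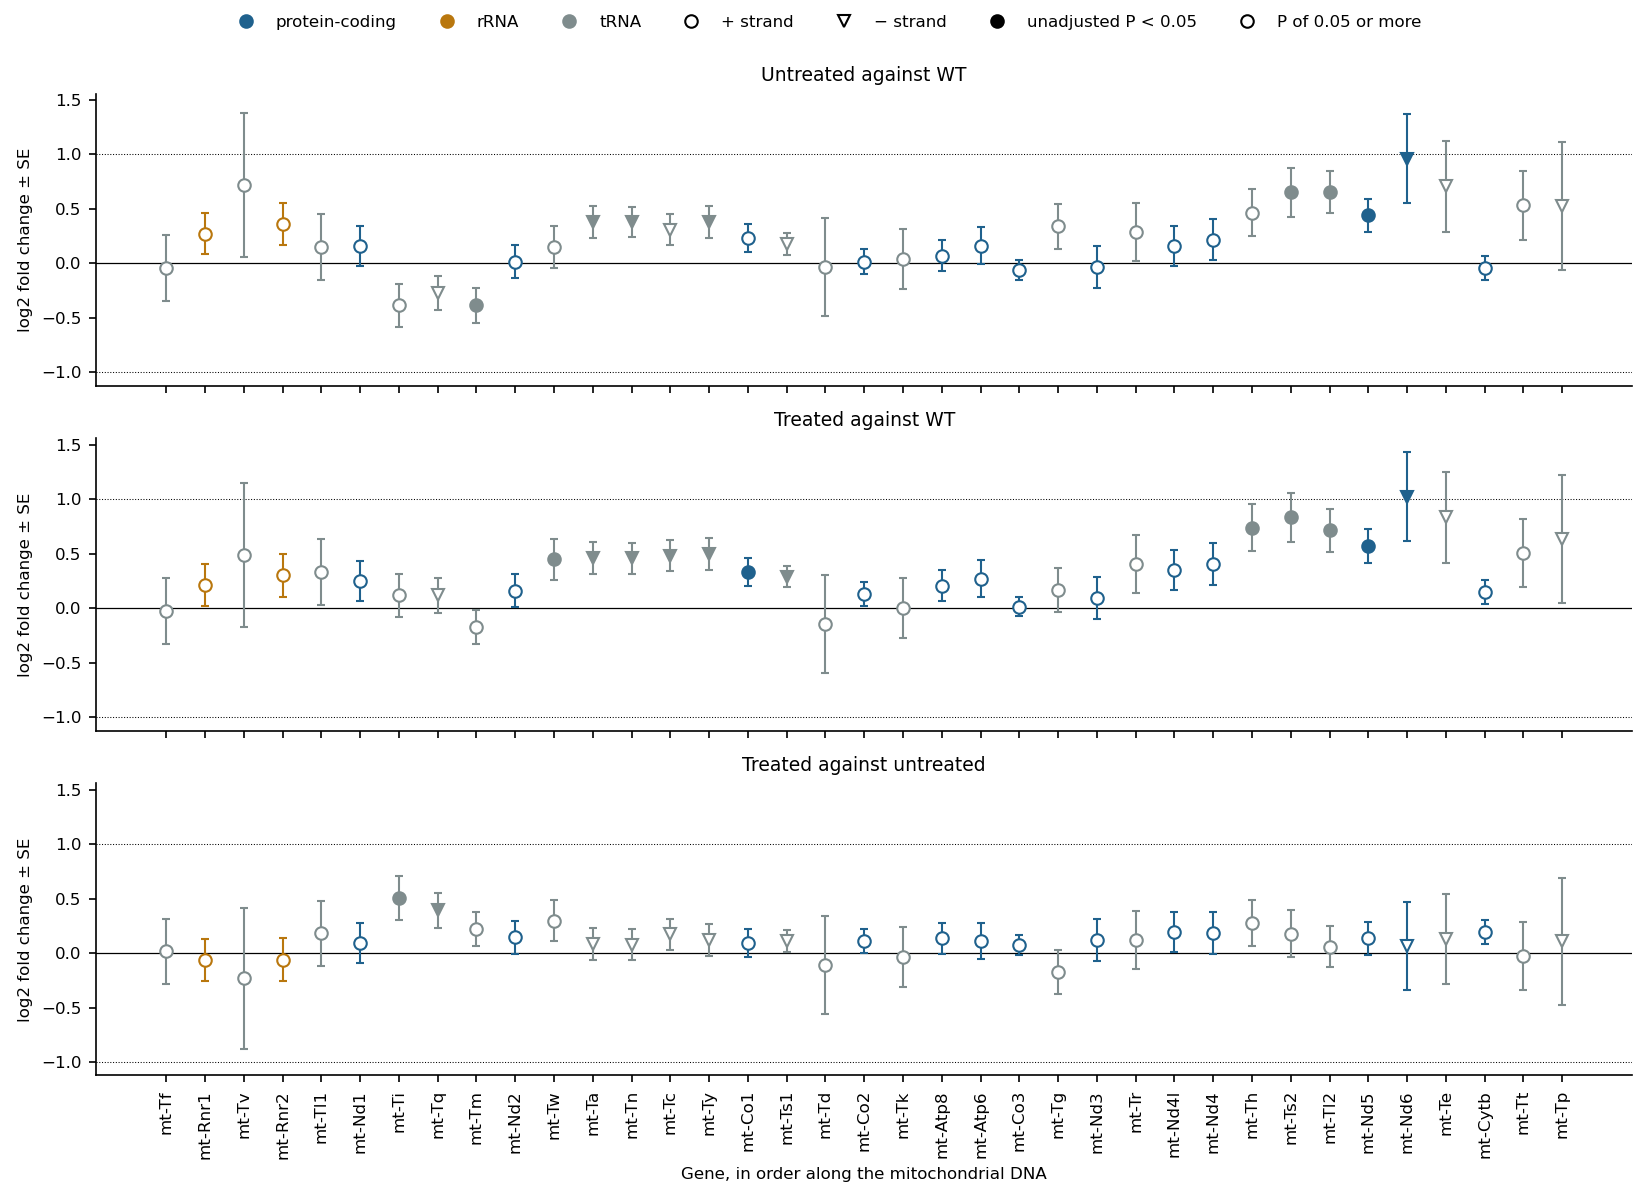
Log2 fold change ± SE of each of the 37 genes in order along the mitochondrial DNA for the 3 comparisons, with dotted lines at a 2-fold change, triangles for genes on the − strand and filled symbols for an unadjusted P under 0.05. Only mt-Nd6 reaches the upper dotted line, at 1.03 in treated against WT mice, and the protein-coding genes lie between 0.06 and 0.19 in treated against untreated mice.

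Complex I takes electrons from NADH and pumps protons, and 7 of its subunits are mitochondrial. The largest difference was at mt-Nd6, the only protein gene on the − strand. In these oligo-dT primed libraries, whether its counts come from its mRNA or from other RNA cannot be told from the table. It had 580, 234.5 and 1100 CPM in WT replicates 1 to 3, 1229, 1196 and 1303 CPM in untreated mice and 1276, 1352 and 1271 CPM in treated ones. Each HD mouse lay above each WT mouse, and the WT mice spanned the widest range. The log2 fold change was 0.96 (SE 0.41) in untreated mice and 1.03 (SE 0.41) in treated ones against WT, with adjusted p = 0.157 and 0.190 (edgeR, Benjamini-Hochberg), and 0.06 (SE 0.41) between the HD groups. Without WT replicate 2 the values of mt-Nd6 against WT were 0.57 and 0.64, and without WT replicate 3 they were 1.61 and 1.69. The DEG call of mt-Nd6 in treated against WT mice was lost without WT replicate 1 (unadjusted P = 0.0845) or WT replicate 2 (log2 fold change 0.64, under the 2-fold limit), with the Y-linked covariate (unadjusted P = 0.103), at a P limit of 0.01, and without any one of the 3 treated mice (unadjusted P of 0.0560 to 0.0669). As a share of mitochondrial counts, which no scaling between libraries touches, mt-Nd6 held 0.920%, 0.462% and 1.44% in WT, 1.71%, 1.67% and 1.83% in untreated mice and 1.66%, 1.71% and 1.69% in treated ones.

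The neighbouring gene mt-Nd5, on the other strand, had 3036, 2368 and 3834 CPM in WT, 4129, 4185 and 4214 in untreated mice and 4498, 4874 and 4386 in treated ones. The groups did not overlap, with WT lowest and treated highest. Its log2 fold change was 0.44 (SE 0.15) in untreated mice and 0.57 (SE 0.15) in treated ones against WT, with adjusted p = 0.0976 and 0.0743 (edgeR, Benjamini-Hochberg). With any mouse left out in turn, mt-Nd5 stayed between 0.28 and 0.63 in untreated and between 0.43 and 0.77 in treated mice against WT. For mt-Nd6 and mt-Nd5, counts can be exchanged between the strands where the counting ignored strand, and the ratio of mt-Nd6 to mt-Nd5 counts was 19.1%, 9.90% and 28.7% in WT, against 27.7% to 30.9% in the 6 HD mice.

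The other complex I genes differed less. The log2 fold change against WT was 0.22 in untreated mice and 0.40 in treated ones for mt-Nd4, 0.16 and 0.35 for mt-Nd4l, 0.16 and 0.25 for mt-Nd1, 0.02 and 0.16 for mt-Nd2, and −0.03 and 0.09 for mt-Nd3. None of these 5 had an unadjusted P under 0.05 in a comparison with WT. Without WT replicate 2, the values in untreated mice were 0.03 for mt-Nd4, −0.05 for mt-Nd4l, −0.04 for mt-Nd1, −0.12 for mt-Nd2 and −0.26 for mt-Nd3, and that of mt-Nd3 in treated mice was −0.13. Between treated and untreated mice, mt-Nd4, mt-Nd4l, mt-Nd3 and mt-Nd5 did not overlap and were higher in treated mice, with values of 0.12 to 0.19. The genes mt-Nd4, mt-Nd4l and mt-Nd3 have a chromosome 1 copy, and mt-Nd1, mt-Nd2, mt-Nd5 and mt-Nd6 have none there.

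Cytochrome b, the only mitochondrial subunit of complex III, is encoded by mt-Cytb. It had 7277, 6719 and 8510 CPM in WT, 7140, 7464 and 7304 in untreated mice and 8389, 8647 and 7988 in treated ones. The untreated mice lay inside the WT range, and each treated mouse lay above each untreated one. The log2 fold change was −0.04 (SE 0.11) in untreated mice and 0.15 (SE 0.11) in treated ones against WT, and 0.19 (SE 0.11) in treated against untreated mice, with adjusted p = 0.923 for the last (edgeR, Benjamini-Hochberg). As a share of mitochondrial counts mt-Cytb was lower in each HD mouse (9.91% to 10.94%) than in each WT mouse (11.14% to 13.24%). The exact permutation p was 0.1 for either HD group against WT, the smallest possible. A lower share in each HD mouse than in each WT mouse was also seen for mt-Nd2, mt-Co2 and mt-Co3. The shares of mt-Nd5 and mt-Nd6 were higher in each HD mouse.

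Complex IV reduces oxygen, and its 3 mitochondrial subunits form the catalytic core. The gene mt-Co1 had 19730, 16160 and 21790 CPM in WT, 22440, 22540 and 22900 in untreated mice and 23960, 25210 and 23370 in treated ones, so that the groups followed each other without overlap. Its log2 fold change against WT was 0.24 (SE 0.13) in untreated mice and 0.33 (SE 0.13) in treated ones, with adjusted p = 0.263 and 0.180 (edgeR, Benjamini-Hochberg). For mt-Co2 the values were 0.02 and 0.13, and for mt-Co3 −0.06 and 0.02. With WT replicate 2 left out, mt-Co2 was at −0.08 in untreated mice and mt-Co3 at −0.02 in treated ones. The share of mitochondrial counts held by complex IV genes was 39.8% to 45.5% in WT and 41.6% to 43.1% in the HD mice. Complex V, the ATP synthase, has mt-Atp6 and mt-Atp8 in its membrane part. Their log2 fold changes against WT were 0.16 and 0.07 in untreated mice and 0.27 and 0.21 in treated ones, with overlap between the groups. They were −0.02 and −0.09 in untreated mice without WT replicate 2. Both were higher without overlap in treated than in untreated mice (0.11 and 0.14).

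Per kilobase of annotated length, the mean level in WT was highest for mt-Co1, at 12440 CPM per kb, followed by mt-Cytb at 6558, mt-Atp8 at 6112, mt-Co2 at 5714 and mt-Atp6 at 5605. The lowest of the protein genes were mt-Nd5 at 1688, mt-Nd3 at 1335 and mt-Nd6 at 1230 CPM per kb. In untreated mice mt-Nd6 stood at 2395 CPM per kb, above mt-Nd5 at 2290 and mt-Nd3 at 1308. In treated mice mt-Nd6 stood at 2505 CPM per kb, close to mt-Nd5 at 2514 and above mt-Nd3 at 1421. Because the libraries start at poly(A), length may not scale these levels, and the values are given as a description.

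Of the rRNAs, mt-Rnr2 had 2642, 2066 and 3903 CPM in WT, 3867, 3421 and 3777 in untreated mice and 3394, 3426 and 3795 in treated ones, and mt-Rnr1 had 2533, 1697 and 3171 in WT, 3151, 2753 and 3045 in untreated mice and 2741, 2803 and 3032 in treated ones. WT replicate 3 was the highest of all 9 mice for both. Their log2 fold changes against WT were 0.36 and 0.27 in untreated mice and 0.30 and 0.21 in treated ones, and −0.06 for both between treated and untreated mice, where the 13 protein genes were all above 0. With the Y-linked share as a covariate, the last values were 0.02 for both.

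The 22 tRNA genes had mean counts between 46.2 and 1708 per library. From mt-Th to mt-Te, a stretch with mt-Ts2, mt-Tl2, mt-Nd5 and mt-Nd6 that was singled out after its values were seen, all 6 genes had values above 0 in both HD groups against WT, at 0.44 to 0.96 in untreated mice and 0.57 to 1.03 in treated ones. Over the 31 genes outside it the medians were 0.16 and 0.27. Within the stretch, mt-Tl2, a leucine tRNA, had 2.04, 1.98 and 2.79 CPM in WT, 3.65, 3.16 and 3.94 in untreated mice and 3.89, 3.59 and 3.715 in treated ones. Each HD mouse was above each WT mouse, with a log2 fold change of 0.65 (SE 0.19) in untreated mice and 0.71 (SE 0.19) in treated mice and adjusted p = 0.0602 and 0.0752 (edgeR, Benjamini-Hochberg). The tRNA genes mt-Th and mt-Ts2 were higher without overlap in both HD groups as well.

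A run of neighbouring tRNA genes on the − strand, mt-Ta, mt-Tn, mt-Tc and mt-Ty, was also singled out after its values were seen. The values were 0.31 to 0.38 in untreated mice and 0.46 to 0.50 in treated ones against WT. All 4 genes had an unadjusted P under 0.05 in treated mice in the edgeR fit (background 21.4%). They lie between mt-Nd2 and mt-Co1. The run mt-Ti, mt-Tq and mt-Tm, between mt-Nd1 and mt-Nd2, was singled out in the same way. It had values of −0.39, −0.27 and −0.39 in untreated mice and 0.12, 0.12 and −0.17 in treated ones against WT. Here mt-Tm, the methionine tRNA, had 21.9, 24.7 and 27.6 CPM in WT, 23.05, 18.7 and 15.05 in untreated mice and 23.9, 21.05 and 21.1 in treated ones, and mt-Ti, the isoleucine tRNA, was higher without overlap in treated than in untreated mice (log2 fold change 0.51, SE 0.20). By strand, the 9 genes on the − strand had a median of 0.38 in untreated mice and 0.48 in treated ones against WT, and the 28 on the + strand 0.16 and 0.26. Between treated and untreated mice the medians were 0.11 and 0.12. Strand goes with gene class, as 8 of the 9 genes on the − strand are tRNA genes. Among tRNA genes alone, the 8 on the − strand had medians of 0.38 in untreated and 0.47 in treated mice against WT. The 14 tRNA genes on the + strand had 0.22 and 0.37.

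For some tRNA genes, 1 or 2 of the WT mice lay far below the HD mice. The proline tRNA mt-Tp had 306, 36 and 475 counts in WT replicates 1 to 3 and 379 to 479 in the HD mice, so that WT replicate 1 lay below the HD range and WT replicate 2 far below it. The valine tRNA mt-Tv had 9 and 11 counts in WT replicates 1 and 2, 80 in WT replicate 3 and 38 to 71 in the HD mice. The glutamate tRNA mt-Te, next to mt-Nd6 on the same strand, had 693 and 378 counts in WT replicates 1 and 2, 1930 in WT replicate 3 and 1629 to 2074 in the HD mice. WT replicate 3 was within or above the HD range for all 3 genes.

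The nuclear-encoded partners of these genes had medians under 0 in both comparisons with WT. Of the 36 nuclear subunits of complex I, 2 fell in untreated against WT mice and none rose at an adjusted p under 0.05 (edgeR, Benjamini-Hochberg). Of all tested genes, 10.7% passed that limit in either direction. The nuclear subunits had a median log2 fold change of −0.13, against 0.16 for the 7 mitochondrial subunits and 0.02 over all tested genes. Without WT replicate 2 these medians were −0.09 for the nuclear and −0.04 for the mitochondrial subunits. The 2 were Ndufb10 at −0.38 and Ndufs3 at −0.36. The median over the 9 nuclear subunits of complex III was −0.09, over the 13 of complex IV −0.09 and over the 16 tested of complex V −0.15, with 1 lower gene in all, Atp5a1, the alpha subunit of ATP synthase, at −0.30. None of these lists held a DEG, where 8.16% of all tested genes were DEGs in untreated against WT mice. In treated against WT mice the medians were −0.13, −0.13, −0.16 and −0.15 for complexes I, III, IV and V. There 1 gene fell, Ndufs3 at −0.33, where 3.69% of all tested genes passed the adjusted p. In treated against untreated mice the medians were between −0.03 and 0.01. None of these genes passed either rule there, where 0.771% of all tested genes were DEGs and 0% passed the adjusted p. Over the 78 mitochondrial ribosomal proteins, which join the 2 rRNAs in the ribosome, the median was −0.07 in untreated and −0.08 in treated mice. Of these, 1 gene, Mrpl44, fell in untreated mice at the adjusted p that 10.7% of all tested genes passed.

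**Figure D5:**
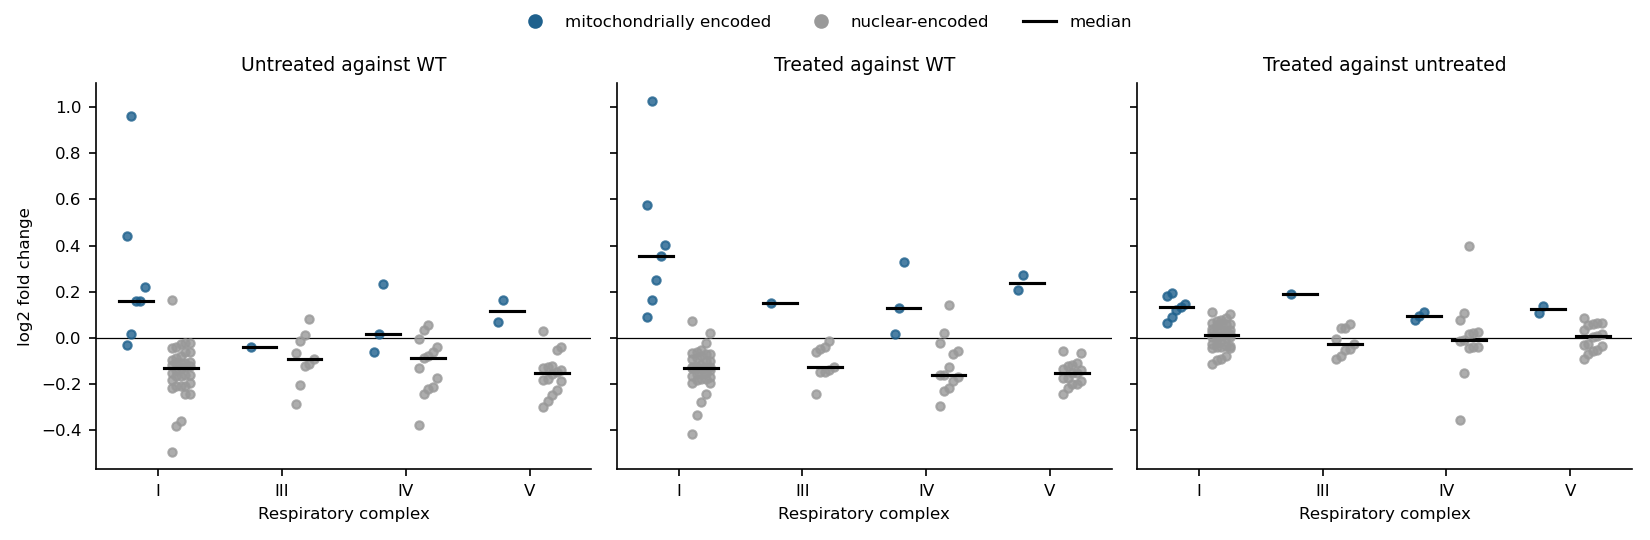
Log2 fold change of the mitochondrially encoded (blue) and nuclear-encoded (grey) subunits of respiratory complexes I, III, IV and V in the 3 comparisons, with 1 point per gene and a bar at the median. For complex I the medians are 0.16 and −0.13 in untreated against WT mice and 0.35 and −0.13 in treated against WT mice. Without WT replicate 2 they are −0.04 and −0.09, and 0.16 and −0.09.

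Of 22 genes that maintain and transcribe mitochondrial DNA, Lig3 (a DNA ligase) and Dguok (a deoxyguanosine kinase that feeds mitochondrial DNA synthesis) fell in untreated against WT mice, by 0.44 and 0.46 on the log2 scale (adjusted p = 0.0431 and 0.0385 (edgeR, Benjamini-Hochberg)), and none passed in treated mice, beside 10.7% and 3.69% of all tested genes. Tfam, which packages mitochondrial DNA and starts its transcription, was at 25.25 ± 1.47 CPM in WT, 26.7 ± 1.22 in untreated mice and 27.2 ± 0.917 in treated ones (SD, n = 3 each). Its log2 fold change was 0.08 in untreated mice and 0.11 in treated ones against WT. Of 28 genes for RNA processing and stability in mitochondria, 2 fell in untreated mice against WT at the adjusted p that 10.7% of all tested genes passed. Ptcd1, a pentatricopeptide protein linked to leucine tRNA precursors and rRNA maturation, fell by 0.70 in untreated and by 0.55 in treated mice, with adjusted p = 0.00784 and 0.0368 (edgeR, Benjamini-Hochberg), and Dhx30, an RNA helicase, fell by 0.29 in untreated mice. Of 8 regulators of mitochondrial biogenesis, Esrra and Ppargc1b fell in untreated mice (−0.54 and −0.65) and Esrra also in treated mice (−0.49). Of all tested genes, 10.7% and 3.69% passed that adjusted p in untreated and in treated mice against WT. Ppargc1a had values of 0.24 and 0.06 with adjusted p = 0.369 and 0.863 (edgeR, Benjamini-Hochberg). None of these 3 lists held a DEG in any comparison. Over all tested genes, DEGs made up 8.16% in untreated against WT, 5.22% in treated against WT and 0.771% in treated against untreated mice.

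Markers of several cell types and nuclear-retained RNAs also differed between the groups. Of the 10 projection neuron markers, 10 fell in untreated and 9 in treated mice against WT at an adjusted p under 0.05 in edgeR. Over all tested genes 10.7% and 3.69% passed that limit. Of the 8 nuclear-retained RNAs, such as Neat1 and Miat, only Kcnq1ot1 passed in untreated mice, near the share of 10.7% over all tested genes. It rose by 0.66 on the log2 scale, with adjusted p = 0.0353 (edgeR, Benjamini-Hochberg). The summed level of the 8 RNAs was 9039 to 10290 CPM in WT against 10910 to 11370 in the HD mice. The summed level of astrocyte markers was 796 to 879 CPM in WT and 908.5 to 1387 in the HD mice, with Gfap at a mean of 136.6 CPM in WT against 356.8 in untreated mice and 361.2 in treated ones, and a median log2 fold change over the 5 markers of 0.04 and 0.02. That of endothelial markers was 120 to 146 against 155 to 195.5, and that of the 5 red blood cell markers 107 to 190 against 2.77 to 67.3. Oligodendrocyte markers were at 6986 to 7685 CPM in WT, 5427 to 5972 in untreated mice and 5795 to 8751 in treated ones, microglial markers at 188 to 210, 206 to 414 and 266 to 311, and general neuronal markers at 2941 to 4127, 4019 to 4899 and 3609 to 3854. Of the 5 T cell markers, 4 were higher as DEGs in both HD groups, and Cd4, the most abundant of them, was lower. Over all tested genes 8.16% were DEGs in untreated and 5.22% in treated mice against WT. At the adjusted p, 3 T cell markers were higher in untreated mice and 0 in treated ones. The part of these shifts in the mitochondrial counts was not tested.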

How the data were processed

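RNA was extracted from the striatum of 9 mice, and 3′ mRNA libraries were primed with oligo-dT. Per the labels and the methods of the study, the authors deposited raw counts per Ensembl gene. The methods name STAR, whereas the submitters' processing notes list Trimmomatic 0.39, FastQC 0.11.9, HISAT2 2.2.1 and featureCounts 2.0.1 and a pig build for all samples. The mouse build, the strand setting, the treatment of reads with several matches and any use of the primer's molecular identifier are not given in the sources used here. Names, positions and transcripts came from GENCODE M21 (GRCm38), which names 94.1% of the identifiers and 99.8% of the counts.

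Counts were analysed with edgeR 4.0.16 in R 4.3.3 (filterByExpr, TMM, glmQLFit and glmQLFTest on all 9 libraries, 6 residual degrees of freedom). Genes at an unadjusted P under 0.05 that differed at least 2-fold were called DEGs, the limits given beside the study's plots (its methods give 0.01 for P), and a Benjamini-Hochberg adjusted p under 0.05 over all tested genes was the second rule. Values in CPM are TMM-scaled, spreads use log2 CPM with a prior count of 2, and each SE was derived from the F statistic. Exact permutation tests, two-sided, compared shares of counts. Copies were sought with blastn 2.17.0. The fit was tested on simulated data.

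All protein, rRNA and tRNA genes with a mean of at least 10 counts could be named, which all 22 tRNA genes had. Of each list, the 3 genes with the smallest P in untreated against WT mice, Tfam and Ppargc1a could be named, and single tRNA runs were singled out after their values were seen. Of 29 RNA processing genes, 28 were found by symbol. The members and lists were chosen with earlier results of these data known. The p-values measure the spread between mice within these groups. The pig counts were not used. Alternatives were other scalings, DESeq2 1.42.0, other filters, fits of fewer groups, a Y-linked covariate, a replicate block and each mouse left out. Alternatives that treat the nuclear copies differently were added after seeing the data. Figures were drawn with matplotlib 3.10.9.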

Additional observations from a re-analysis of the deposited data

How the results depend on the processing

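WT replicates 2 and 3 set the comparisons with WT. With 1 mouse left out at a time, 0 to 3 mitochondrial genes met the DEG definition and 0 to 7 passed the adjusted p in untreated and in treated mice against WT, the highest counts in both coming without WT replicate 3, where 7.25% and 5.03% of all tested genes were DEGs and 7.40% and 3.43% passed the adjusted p. In untreated against WT mice, 0 met either rule. Scaling without TMM factors gave 1 DEG there (mt-Nd6, 8.39% of all genes) and 1 gene past the adjusted p (mt-Tl2, 10.6% of all genes). DESeq2 gave 2 past the adjusted p (17.8% of all genes). In treated against WT mice, where 1 was a DEG and 0 passed the adjusted p, DESeq2 gave 8 past the adjusted p (1946 of 19463 genes in all). There 0 DEGs remained in a fit of the compared groups alone (5.23% of all genes), with the Y-linked covariate (3.62%), or at a P limit of 0.01. Leaving out mitochondrial genes with a chromosome 1 copy took the difference in share to 0.694 percentage points in treated against WT and 0.242 in treated against untreated mice, as fewer genes are summed, and adding the 7 copies took the latter to 0.763. Of 2106 single-gene values over the settings, 63 changed sign, 8 of them in untreated against WT mice without WT replicate 2. In 1 of the 63 either value had an unadjusted P under 0.05: mt-Tf in treated against WT mice was −0.02 and, with the Y-linked covariate, 0.85. The cause was not tested. In treated against untreated mice no setting gave a mitochondrial gene by either rule.

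With the replicate number as a replicate block, 1 gene (mt-Nd6) was a DEG in untreated and 2 (mt-Nd6 and mt-Te) in treated mice against WT. Of all tested genes, 7.83% and 5.36% were DEGs in that fit. Deviations of same-numbered mice correlated at −0.0805 to 0.236, and not every mouse correlated best with a mouse of its own number, so the numbers were not taken as pairs. With 3 mice a group, the exact test of a share cannot pass 0.05, and tRNA genes with few counts have wide errors.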
